A study of Mus musculus with 10 samples.

Results

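The nuclear subunits of respiratory complexes II to V were examined in kidneys of mice fed rilmenidine. They were taken as the protein-coding genes whose GENCODE mouse symbol begins with Sdh followed by a, b, c or d alone, with Uqcr, with Cox and a digit from 4 to 8, or with Atp5. The rule found 47 genes among 43629 listed, 4 of complex II, 8 of complex III, 18 of complex IV and 17 of complex V. The libraries came from kidneys of 10 male UM-HET3 mice, a genetically heterogeneous stock. The 6 control mice ate the Purina 5LG6 diet, and the 4 treated mice ate that diet with 10 ppm rilmenidine, an antihypertensive imidazoline drug, for 1 month from 3 months of age, and all kidneys were of 4 months of age. Each library was made from bulk tissue, so fewer cells of a type and less RNA per cell cannot be told apart. The label text on RNA extraction speaks of liver, but the liver marker Alb had at most 20 counts in any library and Apoa1 at most 4, whereas the 10 proximal tubule markers together took 58190 to 70650 CPM (counts scaled to the same library total) in control and 56170 to 80620 CPM in rilmenidine kidneys.

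The libraries held 863605 to 3232063 counts of reads, with medians of 1489000 in control and 2483000 in rilmenidine kidneys (two-sided exact permutation test, p = 0.0667, and 0.171 after Benjamini-Hochberg adjustment over 4 library measures). Malat1, a nuclear noncoding RNA, stood at 1182 to 2100 normalized CPM in controls 1, 3, 4 and 5, at 398 and 284 in controls 2 and 6, and at 306 to 393 in rilmenidine kidneys (p = 0.0857, exact permutation test, 0.171 after adjustment). Its levels are set beside the results below because the subunit genes moved with them. The smallest one-sided p that the 210 splits of 10 kidneys into 6 and 4 allow is 0.00476, and the two-sided floor is higher.

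The respiratory chain of the inner mitochondrial membrane passes electrons from food to oxygen and stores the energy as a proton gradient. Complex II, succinate dehydrogenase, also belongs to the citric acid cycle and passes electrons from succinate to ubiquinone. Complex III passes them on to cytochrome c, complex IV from cytochrome c to oxygen, and complex V, the ATP synthase, uses the gradient to make ATP. Complexes III, IV and V hold subunits encoded in the nucleus beside a few encoded in mitochondrial DNA, whereas all of complex II is nuclear. The proximal tubule and the thick ascending limb of the kidney are rich in mitochondria, which power sodium reabsorption.

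Nuclear respiratory factor 1 (NRF1) is a transcription factor known for its binding in promoters of such genes. Promoter windows of RefSeq (GRCm38.p6), 250 bases before to 50 bases after a transcript start, were found for 36 of the 47 genes. The letters GCATGCGC of the NRF1 motif, read on both strands, stood in a window of 7 of them (19.4%), against 824 of 27025 genes with a window (3.05%). The overlapping pair of these letters on opposite strands makes the palindrome of 10 letters seen in 4 of the 7. The stretch of 30 bases around the letters is shown for all 7, since these genes span complexes II to V and differ in their counts, and capitals mark the motif.
Sdhb: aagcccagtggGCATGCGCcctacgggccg
Uqcrc1: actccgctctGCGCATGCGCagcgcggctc
Uqcr11: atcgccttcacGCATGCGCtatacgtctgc
Cox6a1: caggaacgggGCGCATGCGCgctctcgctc
Atp5k: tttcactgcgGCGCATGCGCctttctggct
Atp5l: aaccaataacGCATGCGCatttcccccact
Atp5g2: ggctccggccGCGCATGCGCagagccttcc

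They lie in GRCm38.p6 at chr4:140961206-140961235 on the plus strand for Sdhb, chr9:108936668-108936697 on the plus strand for Uqcrc1, and on the minus strand at chr10:80406807-80406836 for Uqcr11, chr5:115349101-115349130 for Cox6a1, chr5:108434430-108434459 for Atp5k, chr9:44920963-44920992 for Atp5l and chr15:102671070-102671099 for Atp5g2. Relative to the transcript start in RefSeq, the motif lay before it in Sdhb, Cox6a1, Atp5k, Atp5l and Atp5g2, across it in Uqcr11 and after it in Uqcrc1. GENCODE M21 places the outer end of some of these genes elsewhere, so that all motif bases in Sdhb, Uqcr11, Uqcrc1 and Atp5g2 and 9 of 10 in Atp5k lie within the GENCODE gene, and none in Cox6a1 and Atp5l. Letters of the ETS motif, CCGGAAGT on either strand, which factors such as GABPA bind, stood in windows of Atp5h, Cox8a, Uqcr11 and Uqcrh, 11.1% of the 36 genes against 4.31% of all genes with a window. Such a match is a description of the letters and not of binding in these kidneys. The background of all genes with a window was not limited to protein-coding or kidney-expressed genes, so the shares compare unlike sets.

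Of the 47 genes, 39 had at least 6 counts in at least 7 of the 10 kidneys and were tested, all 4 of complex II, all 8 of complex III, 11 of 18 of complex IV and 16 of 17 of complex V. Most of the 8 others are isoforms known from other tissues. Cox8c, which is known from testis, had 0 counts in all 10 kidneys, where 3 counts would be 0.32 CPM over the control and 0.2996 CPM over the rilmenidine libraries. Cox4i2, a lung isoform, had 1 count in all, Cox7b2 had 0 to 6 per kidney, Cox8b 0 to 6, Cox6b2 2 to 12 and Cox6a2, a muscle isoform, 1 to 23. Per kilobase of exon, the level in control kidneys was 1146 CPM for Cox4i1 and 0 for Cox4i2, 2359 for Cox6a1 and 6.38 for Cox6a2, 1363 for Cox6b1 and 4.85 for Cox6b2, and 3146 for Cox8a and 3.83 for Cox8b. Counts taken at the 3′ end of a transcript need not grow with its length, so the CPM before division by length are set beside them, at 877 and 0, 1347 and 4.33, 842 and 3.59, and 1731 and 1.38 in the same order. The ubiquitous isoform was the higher one in each pair on both scales. Among the Cox7a genes, the level in control kidneys was 404 CPM per kilobase (266 CPM) for Cox7a2, 153 (175 CPM) for Cox7a2l and 23.6 (12.6 CPM) for Cox7a1, the heart and muscle isoform.

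Cox5a and Atp5g2 were below the filter too, although both belong to respiring cells in general. Cox5a (ENSMUSG00000000088, chromosome 9 of GRCm38, 57521274 to 57532426) had 0 to 5 counts per kidney and Atp5g2 (ENSMUSG00000062683, chromosome 15, 102662864 to 102672352) also 0 to 5, and Cox7c and Atp5l passed with at most 22 and 26 counts. These low genes were singled out after their counts were seen. The published library protocol that the labels cite is known to capture the 3′ end of a transcript, so the last 300 bases of each gene's principal transcript in GENCODE M21 were compared with the transcripts of all other genes. For Cox7c, 99.2% of the 50-base words in that stretch also occurred in another gene, for Atp5g2 98.4% and for Atp5l 70.1%. Among the remaining genes the share was at most 40.6%, that of Uqcrb. For Cox7c the genes that shared most words were the processed pseudogenes Gm10012, with 2 to 20 counts per kidney, and Gm12338, with 77 to 300. Cox5a shared 1.2% of its words, and 89.7% of its last 300 bases lay under Gm26631, a noncoding gene of the opposite strand with 0 to 12 counts. Such an overlap covered all of the same stretch of Uqcrc2, which had up to 2798 counts. How the counting treated reads that fit several places is not given in the sources used here, so the counts of Cox7c, Atp5l, Atp5g2 and Cox5a are uncertain, and the part of shared sequence in them was not tested.

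**Figure D1:**
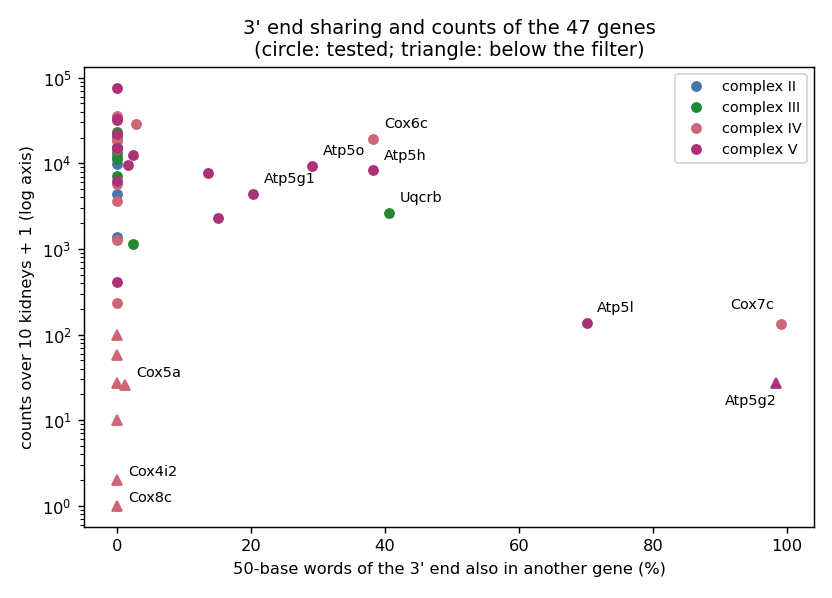
Share of 50-base words in the last 300 bases of each transcript that also occur in another gene (x axis, percent) against the counts summed over 10 kidneys plus 1 (y axis, log scale), for all 47 genes by complex. Cox7c and Atp5g2 sit at the far right at 99.2% and 98.4% with few counts, and the triangles are the 8 genes below the filter.

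The comparison of control and rilmenidine kidneys asks whether the drug changes gene expression in mice. Nuclear subunits of complexes II to V had mostly slightly higher mean levels in rilmenidine kidneys, no gene passed the test, and the difference was close to 0 with log2 Malat1 as a covariate. Of the 39 genes, 35 had a log2 fold change above 0 (50.3% of all 10055 genes tested), and the median log2 fold change was 0.24, a difference of 18.0%, against 0.0020 over all genes tested. After Benjamini-Hochberg (BH) adjustment over all genes tested, 0 of the 39 had p under 0.05 (0% of all genes tested) by the quasi-likelihood (QL) test of edgeR, 0 by its likelihood ratio test (0.438% of all genes tested) and 0 by DESeq2 (0.597%), and the smallest QL value was 0.349. Before adjustment, p (nominal p below) was under 0.05 for 10 genes by the QL test (10.6% of all genes tested), 5 by the likelihood ratio test (9.87%) and 14 by DESeq2 (9.8%). Of the 10, 9 were higher with rilmenidine, against 4.43% of all genes tested, and 1 was lower, against 6.13%. No gene had every rilmenidine kidney above every control kidney (0.796% of all genes tested) or every one below (0.875%). The 32 genes with a mean of at least 100 normalized CPM all had a log2 fold change above 0, between 0.009 and 0.42 with a median of 0.24, where 62% of all 1641 genes tested at that level were above 0, with a median of 0.067.

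**Figure D2:**
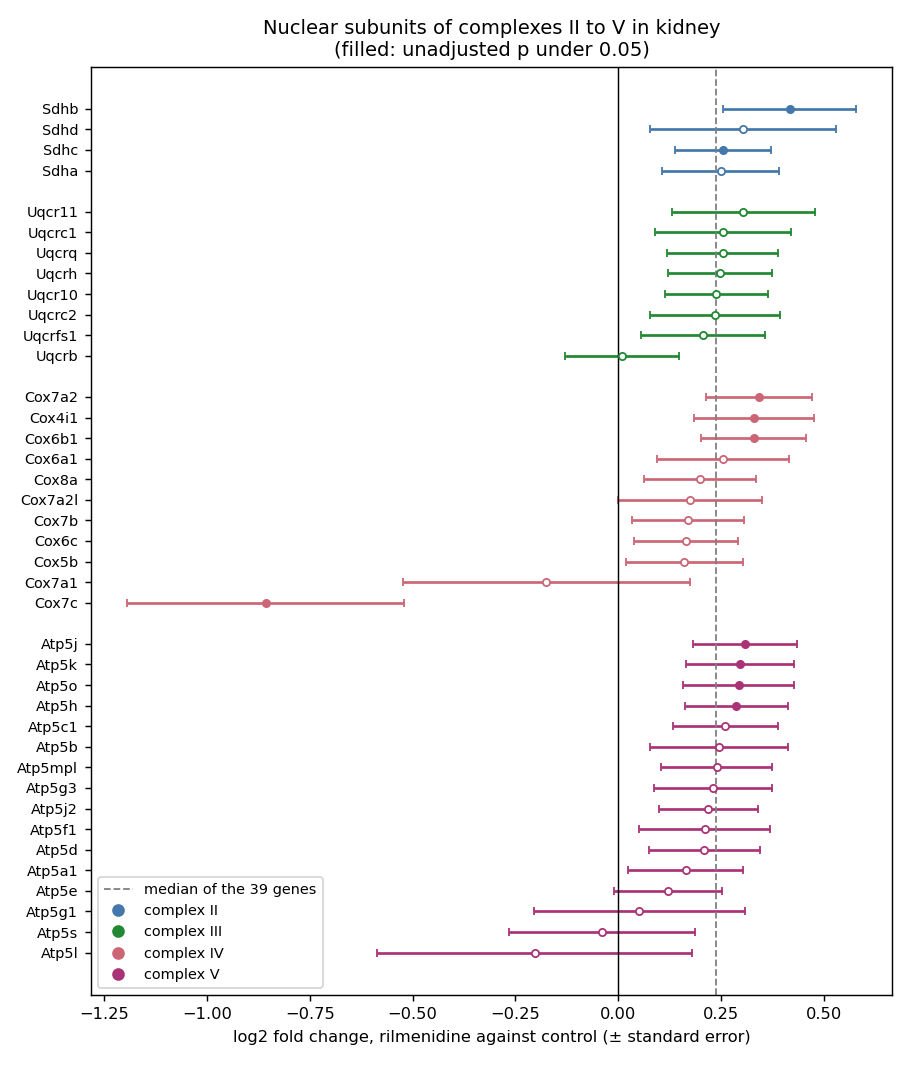
Log2 fold change of rilmenidine against control kidneys with its standard error (x axis) for the 39 tested genes, by complex, with filled points for a nominal p under 0.05 and a dashed line at the median of 0.24. Most genes sit between 0.1 and 0.4, and Cox7c stands apart at −0.86.

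In complex II all 4 subunits had a log2 fold change above 0, with a median of 0.28. Sdhb (ENSMUSG00000009863; chromosome 4 of GRCm38, 140961203 to 140979193), the iron-sulfur subunit whose promoter letters are shown above, had the largest log2 fold change of the 39 genes. It ranged from 333 to 579 normalized CPM in control kidneys with a median of 405, and stood at 627, 483, 631 and 594 in rilmenidine kidneys 1 to 4. Kidneys 1, 3 and 4 lay above every control kidney and kidney 2 within their range. This gave a log2 fold change of 0.42 (standard error, SE, 0.16, edgeR QL p-value 0.0197 nominal and 0.368 BH-adjusted). Sdhc, a membrane anchor subunit, had 183 to 243 normalized CPM with a median of 205 in control kidneys and 245, 241, 277 and 232 in rilmenidine kidneys. Its log2 fold change was 0.26 (SE 0.12, BH-adjusted p = 0.455). The flavoprotein subunit Sdha had a log2 fold change of 0.25 (SE 0.14) and the other anchor, Sdhd, one of 0.30 (SE 0.23), and both nominal p-values were above 0.05, at 0.09915 and 0.198. Sdhd had the fewest counts of the 4, with 31.5 to 82.1 normalized CPM in control kidneys, and rilmenidine kidney 2, at 50.5, lay far below the other treated kidneys, at 83.7 to 90.5.

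All 8 complex III genes had a log2 fold change above 0, with a median of 0.24, and none had a nominal p under 0.05. The core subunits Uqcrc1 and Uqcrc2 had log2 fold changes of 0.26 and 0.24 and the Rieske iron-sulfur subunit Uqcrfs1 one of 0.21. The small accessory subunits Uqcrq, Uqcrh and Uqcr10 had values of 0.25, 0.25 and 0.24. Uqcrq (chromosome 11, 53427922 to 53430831), with the most counts of the complex, had 954 to 1348 normalized CPM in control kidneys with a median of 1035 and 1405, 1301, 1358 and 1202 in rilmenidine kidneys, so that kidneys 1 and 3 were above every control kidney. The largest log2 fold change was 0.30 (SE 0.17) for Uqcr11. The smallest was 0.0093 (SE 0.14) for Uqcrb, which took values of 118 to 179 normalized CPM in rilmenidine and 126 to 167 in control kidneys and shared 40.6% of the words at its 3′ end with other genes. Its sign turned without control 2, 3 or 5 or rilmenidine 1 or 2, between −0.11 and 0.093 over all such fits. The smallest nominal p of the complex was 0.0660, for the hinge protein Uqcrh.

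Of the 11 tested complex IV genes, 9 had a log2 fold change above 0, and the median was 0.17. Cox7a2 (chromosome 9, 79755361 to 79759878), the common isoform of a small accessory subunit, had 216 to 319 normalized CPM in control kidneys with a median of 262. The treated kidneys had 376, 315, 367 and 286, and the log2 fold change was 0.34 (SE 0.13, edgeR QL p-value 0.0172 nominal and 0.349 BH-adjusted). Kidneys 1 and 3 lay above the control range and the other two within it. Cox6b1 (chromosome 7, 30616861 to 30626151), a subunit on the intermembrane side, had 759 to 946 normalized CPM in control kidneys with a median of 828 and 1232, 921, 962 and 1103 in rilmenidine kidneys. Only its kidney 2 was below the highest control kidney, and the log2 fold change was 0.33 (SE 0.13). Cox4i1 (chromosome 8, 120668222 to 120674207), a regulatory subunit, had 710 to 1095 normalized CPM with a median of 812 in control kidneys and 1195, 1064, 1089 and 1050 in rilmenidine kidneys. Its log2 fold change was 0.33 (SE 0.15, QL BH-adjusted p = 0.442). The other common isoforms had smaller values, namely 0.26 for Cox6a1, 0.20 for Cox8a, 0.17 for Cox7b, 0.17 for Cox6c and 0.16 for Cox5b, and Cox7a2l, which joins complexes III and IV into supercomplexes, had 0.17. 

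Cox7c (chromosome 13, 86044816 to 86046904) went the other way, with a log2 fold change of −0.86 (SE 0.34, edgeR QL p-value 0.0212 nominal and 0.371 BH-adjusted). Its level was 3.37 to 11.9 normalized CPM in control kidneys with a median of 9.68 and 4.64, 6.52, 5.60 and 3.44 in rilmenidine kidneys. These are 3 to 22 counts per kidney, and 99.2% of the words at its 3′ end occurred in other genes. The pseudogene Gm12338, one of these genes, had a log2 fold change of 0.21 (SE 0.15). Cox7a1, the heart and muscle isoform, had a log2 fold change of −0.17 (SE 0.35) with 8 to 45 counts per kidney, and it was above 0, at 0.56, in the libraries rich in receptor counts described below.

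In complex V, 14 of the 16 tested genes had a log2 fold change above 0, with a median of 0.23. A nominal p under 0.05 was found for 4 of them, Atp5j, Atp5k, Atp5o and Atp5h. At their 3′ ends 15.1%, 1.6%, 29.1% and 38.2% of the words, in the same order, also occurred in other genes. Atp5j (chromosome 16, 84827866 to 84835625), coupling factor 6, had 92.1 to 126 normalized CPM in control kidneys with a median of 107 and 135, 139, 142 and 121 in rilmenidine kidneys. Kidneys 1, 2 and 3 were above every control kidney, and the log2 fold change was 0.31 (SE 0.13, QL BH-adjusted p = 0.397). Atp5k, subunit e of the membrane part, had 385 to 532 normalized CPM with a median of 441 in control kidneys and 626, 548, 577 and 474 in rilmenidine kidneys, again with 3 of 4 above the control range. Atp5o, the subunit that confers oligomycin sensitivity, had 363 to 523 with a median of 418 in control kidneys and 607, 455, 549 and 530 in rilmenidine kidneys. Atp5h, subunit d of the peripheral stalk, had 334 to 476 with a median of 367 in control kidneys and 455, 432, 521 and 456 in rilmenidine kidneys. The log2 fold changes of Atp5k, Atp5o and Atp5h were 0.30, 0.29 and 0.29, each with a SE of 0.13. The subunits of the catalytic head had 0.16 for Atp5a1 (alpha) and 0.25 for Atp5b (beta). Those of the central stalk had 0.26 for Atp5c1 (gamma), 0.21 for Atp5d (delta) and 0.12 for Atp5e (epsilon). The nominal QL p-values of head and central stalk ran from 0.0573 to 0.369. Other genes of the peripheral stalk and membrane part had values in the same range, at 0.21 for Atp5f1 (subunit b, nominal p-value 0.204), 0.22 for Atp5j2 (subunit f, 0.0843) and 0.24 for Atp5mpl (a small membrane proteolipid, 0.0950). Whether these parts differed was not tested.

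The proton-carrying ring of complex V is built from subunit c, which is encoded by Atp5g1, Atp5g2 and Atp5g3. In control kidneys Atp5g3 took 3681 CPM, Atp5g1 235 and Atp5g2 1.51, the last with the shared 3′ end described above. Per kilobase of exon these were 5085, 47.9 and 2.07 CPM, where the gap between Atp5g3 and Atp5g1 widens because the exons of Atp5g1 cover 4912 bases and those of Atp5g3 724, and no ratio is drawn from these 3′-end counts. Atp5g3 (chromosome 2, 73908447 to 73911326) had 3103 to 4403 normalized CPM in control kidneys with a median of 3594 and 4516, 4003, 4550 and 4143 in rilmenidine kidneys. Its log2 fold change was 0.23 (SE 0.14, QL BH-adjusted p = 0.595). Atp5g1 varied more, with 129 to 322 normalized CPM in control kidneys and 225, 374, 166 and 212 in rilmenidine kidneys. Its log2 fold change was 0.052 (SE 0.26), and the sign changed without control 3, control 5 or rilmenidine 2. Atp5l, subunit g, and Atp5s, the coupling factor B gene, had −0.20 (SE 0.38) and −0.040 (SE 0.23), with 4 to 26 and 21 to 75 counts per kidney.

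Summed over its tested genes, complex II took 1280 ± 193 normalized CPM (SD, n = 6) in the controls and 1592 ± 143 (SD, n = 4) in treated mice. The sums were 4522 ± 638 and 5313 ± 417 for complex III, 6994 ± 1019 and 8257 ± 373 for complex IV, and 12200 ± 1736 and 14260 ± 1076 for complex V. The groups overlapped in every complex. In each of the 4 complexes the sums of controls 2 and 6 were above those of the other control kidneys, at 28740 and 29700 over all 39 genes against 20880 to 25170 in controls 1, 3, 4 and 5. The rilmenidine kidneys had 31490, 27080, 30480 and 28620, so that controls 2 and 6 stood among them. In 26 of the 39 genes (66.7%) controls 2 and 6 were the 2 highest control kidneys, which held for 13.6% of all genes tested, a count made after the values were seen. The spread of the abundant members among control kidneys was like that of other genes, with a median coefficient of variation of 14.5% over 32 genes and 14.5% over all 1641 genes tested with at least 100 normalized CPM.

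**Figure D3:**
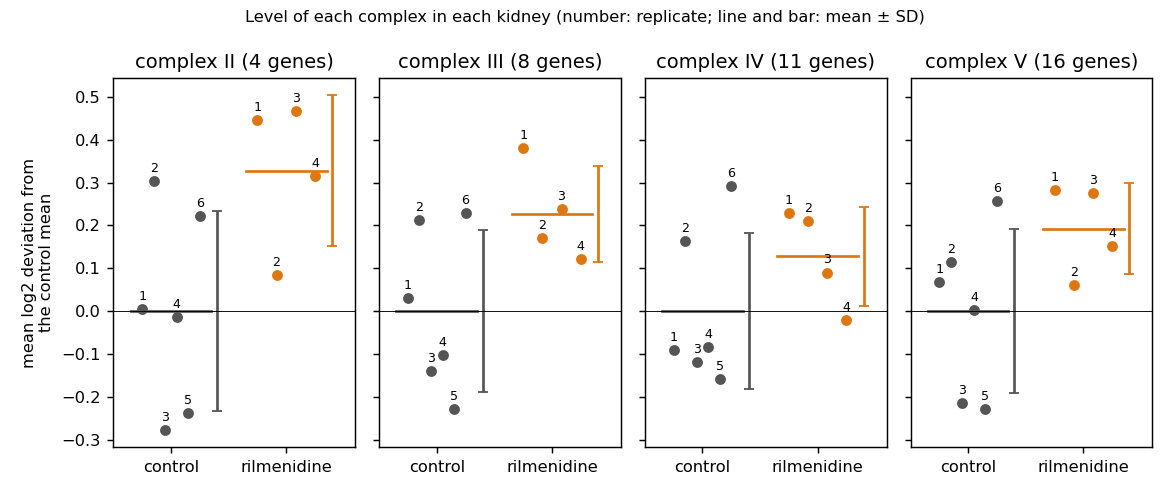
Mean log2 deviation of each complex from the control mean (y axis) in each kidney of the control (n = 6) and rilmenidine (n = 4) groups, with replicate numbers beside the points and the mean and SD as line and bar. Controls 2 and 6 lie above the other controls in each complex, from 0.11 to 0.30, and overlap the rilmenidine kidneys.

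The mean log2 deviation of the 39 genes from the control mean was 0.17 and 0.26 in controls 2 and 6, and 0.31, 0.13, 0.23 and 0.11 in rilmenidine kidneys 1 to 4. In controls 1, 3, 4 and 5 it was 0.008, −0.18, −0.045 and −0.21. The 6 kidneys with the higher values are those with 284 to 398 normalized CPM of Malat1, and the 4 with the lower values are those with 1182 to 2100. The same 6 kidneys had the deepest libraries, at 1787638 to 3232063 counts, against 863605 to 1644042 in the other 4. Malat1 and library size therefore cannot be told apart by this split, and neither was tested as a cause. All 4 rilmenidine kidneys are among these 6, so neither covariate can be separated fully from the drug. With log2 Malat1 as a covariate 23 of the 39 genes had a log2 fold change above 0 (51.8% of all genes tested), the median was 0.023, and 0 genes had a nominal p under 0.05 (3.03% of all genes tested). With log2 library size as a covariate 34 genes were above 0 (52.1% of all genes tested), with a median of 0.14 and again 0 genes with a nominal p under 0.05 (4.3% of all genes tested). The libraries also differed in counts on olfactory and vomeronasal receptor genes, though the labels name no batch. Of the libraries 7, 5 control and 2 rilmenidine, had 10 CPM or more on these genes. In them 36 of the 39 genes were above 0 (51.3% of all genes tested), with a median of 0.30. The other 3 libraries, control 6 and rilmenidine 3 and 4, were too few for a value. Control 6 had the highest sum of the control kidneys, and leaving it out alone gave a median of 0.29.

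**Figure D4:**
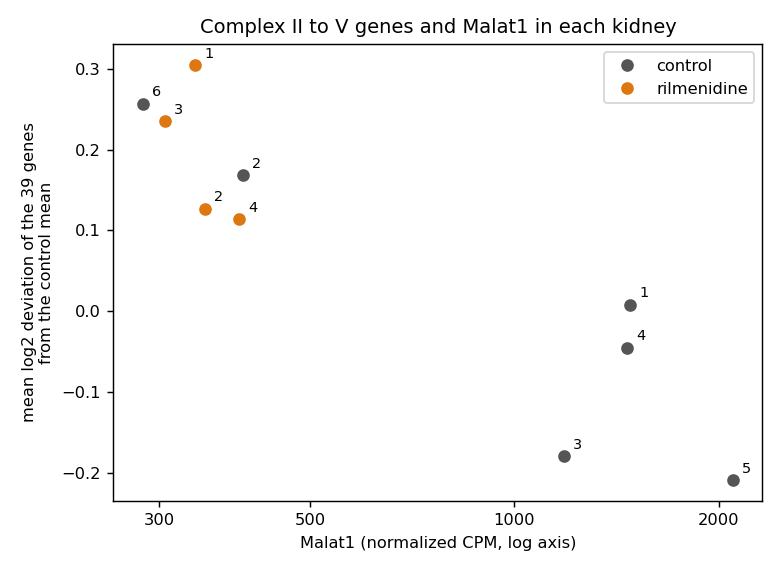
Mean log2 deviation of the 39 genes from the control mean (y axis) against normalized CPM of Malat1 (x axis, log scale) in each kidney, with replicate numbers. The 4 rilmenidine kidneys and controls 2 and 6 lie together at the upper left, and controls 1, 3, 4 and 5 at the lower right. The kidneys at the upper left also have the deepest libraries.

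The median log2 fold changes of complexes II, III, IV and V stayed above 0 in every setting tried, except that of complex IV with log2 Malat1 as a covariate, which was −0.017. The order of the complexes changed between settings, and differences between complexes were not tested.

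**Figure D5:**
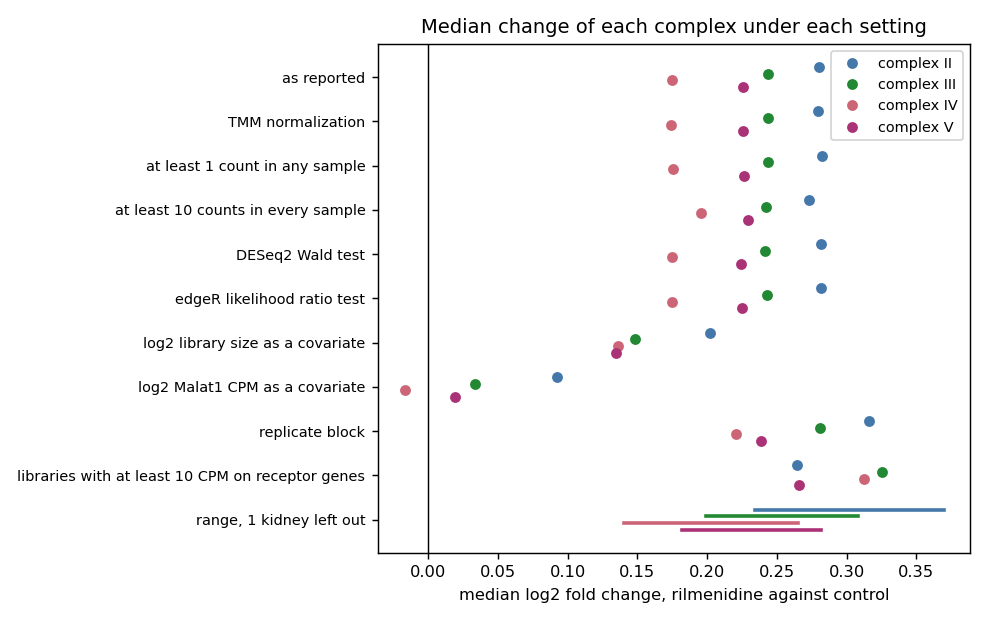
Median log2 fold change of rilmenidine against control (x axis) of each complex under the reported setting and 9 alternatives, and as a range over the fits with 1 kidney left out. All medians lie above 0 except that of complex IV, at −0.017, with log2 Malat1 as a covariate, where the points of complexes III, IV and V come closest to 0.

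A hand-written list of genes that the symbol rule leaves out held 41 nuclear partners and assembly factors, 10 regulators and 6 subunits encoded in mitochondrial DNA. Of the 41 partners and assembly factors 35 were tested, 24 had a log2 fold change above 0 (50.3% of all genes tested), and the median was 0.16. By the QL test of edgeR 0 of the 35 had a BH-adjusted p under 0.05, while the nominal p was under 0.05 for 5 that were higher with rilmenidine (4.43% of all genes tested) and 0 that were lower (6.13%). Cyc1, the cytochrome c1 subunit of complex III, had a log2 fold change of 0.28 (SE 0.14), and Ndufa4, which is counted with complex IV, one of 0.22 (SE 0.12). Fmc1, an assembly factor of complex V, had 88.8 to 142 normalized CPM in control kidneys with a median of 106 and 206, 150, 153 and 141 in rilmenidine kidneys. Its log2 fold change was 0.57 (SE 0.15, QL BH-adjusted p = 0.232). The QL BH-adjusted p of Fmc1 was 0.04345 when no filter beyond a single count was set, where 241 of 27565 genes tested were under 0.05. It was above 0.05 in every other setting. With log2 library size and log2 Malat1 as covariates it was 0.9755 and 0.9996, at log2 fold changes of 0.52 and 0.34. The copper chaperone Cox17 had 219 to 283 normalized CPM with a median of 247 in control kidneys and 311, 318, 346 and 303 in rilmenidine kidneys, with no overlap between the groups. Uqcc3, an assembly factor of complex III, did not overlap either, with 20.1 to 29.4 against 34.2, 30.4, 32.2 and 35.3 normalized CPM, which makes 2 of 35 against 0.796% of all genes tested. The log2 fold changes were 0.37 for Cox17, 0.39 for Uqcc3, 0.48 for Coa6, which helps to deliver copper to complex IV, and 0.44 for Coa7, another assembly factor of complex IV.

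Of the 10 listed regulators of these genes 9 were tested, and 3 had a log2 fold change above 0 (50.3% of all genes tested), with a median of −0.14. By the QL test no adjusted p was under 0.05, and 1 nominal p was (10.6% of all genes tested). A difference between regulators and subunits was not tested. Ppargc1a, the coactivator PGC-1 alpha, had a log2 fold change of −0.26 (SE 0.18), with 92.9 to 183 normalized CPM in control kidneys and 150, 95.0, 115 and 140 in rilmenidine kidneys. Nrf1 had −0.27 (SE 0.27), Gabpa −0.16, Tfam, the packaging factor of mitochondrial DNA, 0.12, Tfb2m 0.24 and Esrra 0.27. Gabpb1, the partner of Gabpa, had −0.61 (SE 0.28, QL BH-adjusted p = 0.456) at 8.12 to 32.4 normalized CPM. The signs of Ppargc1a, Nrf1 and Tfam changed with log2 Malat1 as a covariate, to 0.12, 0.063 and −0.050, and those of Nrf1, Tfam and Esrra with log2 library size, to 0.18, −0.038 and −0.020.

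Markers of nephron segments were read beside these values because segments differ in mitochondria. Over all genes tested, 50.3% had a log2 fold change above 0. Of 10 proximal tubule markers 5 were above 0, with a median log2 fold change of 0.047, and their summed CPM are given above. All 4 tested thick ascending limb markers were above 0, with a median of 0.41, and the list summed to 1216 to 2109 CPM in control and 1538 to 2618 CPM in rilmenidine kidneys. All 4 distal convoluted tubule markers were below 0, with a median of −0.45, and summed to 779 to 1257 and 557 to 939.6 CPM. The 4 tested principal cell markers were above 0, with a median of 0.25 and sums of 137 to 181 and 182 to 219.7 CPM, and the 4 tested intercalated cell markers had a median of −0.042 and sums of 212 to 313 and 158 to 336 CPM. Medians were −0.21 for 4 podocyte, 0.0080 for 5 endothelial, 0.29 for 5 immune and 0.10 for 3 blood genes. The 5 liver genes, 2 of them tested, had a median of 0.11 and summed to 1710 to 2643 and 1509 to 2584 CPM, nearly all from Cyp2e1, which the kidney also expresses. No marker had an adjusted p-value under 0.05 by the QL test (0% of all genes tested), while 7 had an unadjusted one (10.6% of all genes tested). These were 1 of 10 proximal tubule, 2 of 4 thick ascending limb, 2 of 4 distal convoluted tubule and 2 of 4 principal cell markers. The other lists had none. The part of these segments in the values of the subunits was not tested.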

How the data were processed

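RNA of whole kidneys from 6 control and 4 rilmenidine mice was sequenced; the labels cite a published library protocol that is known to capture the 3′ end of transcripts, and the study's methods name more control kidneys than the 6 analysed here. The authors deposited 1 table of read counts per gene; their processing notes name bcl2fastq 1.8.4, Trimmomatic 0.32, STAR 2.5.2b, featureCounts 1.5 and mm10. The annotation release, strand setting and handling of molecular identifiers are not given in the sources used here. The floor of 3 counts covers counting error only. Standard errors were computed as the absolute log2 fold change over the square root of the quasi-likelihood F statistic. They include the spread between kidneys. Neither the floor nor the standard errors cover the choices in counting that are not given. Symbols and coordinates came from GENCODE M21 (GRCm38), which held 42548 of the 43629 listed IDs.

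Genes with at least 6 counts in at least 66.6% of kidneys were kept (10055). Library sizes were scaled by relative log expression, and groups were compared with edgeR 4.0.16 (R 4.3.3) by the quasi-likelihood test. It was two-sided, with Benjamini-Hochberg adjustment over all genes tested. Normalized CPM (edgeR's cpm) use the scaled library sizes, and log2 levels per kidney were taken with a prior count of 2. Levels between isoforms are given as CPM and per kilobase of exon, since 3′-end counts need not grow with length. The fit was also run on simulated counts, either with no change or with changes larger than those of the subunit genes. These runs do not show how it handles small differences shared by many genes. No 2 libraries agreed within sampling noise (lowest chi-square per degree of freedom 3.61 over 45 pairs).

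The genes, the partner list and the marker lists were chosen with earlier results of these data known. By the naming rule, values are given for all complex II genes, the largest and smallest log2 fold change and the 2 genes with the most counts in each other complex, every gene with an unadjusted p under 0.05, the isoform sets, partners with an unadjusted p under 0.05, and 5 regulators; other genes named were chosen after their values were seen. Alternatives were TMM scaling, filters of 1 count in any or 10 counts in every kidney, DESeq2 1.42.0, edgeR's likelihood ratio test, covariates for library size and Malat1, a replicate block, the libraries with at least 10 CPM on receptor genes, and leaving out each kidney.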

Additional observations from a re-analysis of the deposited data

Results flagged for a closer look

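Values that stood apart from the rest of their group by Dixon's criterion at the 95% level were found for 4 genes among 82 groups of values tested, and chance flags about 1 in 20 groups. Rilmenidine kidney 2 was the lowest of the 4 treated kidneys for 3 of them, with 1482 normalized CPM of Cox6a1 (gap to the next kidney 0.878 of the group's range), 50.5 of Sdhd (0.831) and 848.2 of Uqcrfs1 (0.857). Control 3 was the highest of 6 for Gabpb1, at 32.4 normalized CPM (0.651).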

How the results depend on the processing

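The number of adjusted p-values under 0.05 among the subunit genes was 0 in every setting run. The number of unadjusted p-values under 0.05, reported as 10, was 5 with every gene of at least 1 count kept, 5 with the likelihood ratio test, 0 with log2 library size and 0 with log2 Malat1 as a covariate, where the share of all genes tested moved from 10.6% to 7.38%, 9.87%, 4.3% and 3.03%. With 1 kidney left out it lay between 2 and 16, being 16 without control 2 or control 6, 4 without control 3 or control 5, 5 without control 4, and 2 without rilmenidine 1 or rilmenidine 3. The share of all genes tested in these fits was 13.5% and 14.4% without control 2 and control 6, and 8.52%, 8.05%, 7.29%, 8.14% and 7.64% without controls 3, 4 and 5 and rilmenidine 1 and 3. With log2 Malat1 as a covariate the number above 0 fell from 35 to 23 and the medians were 0.0233 over all genes, 0.0332 in complex III, −0.0167 in complex IV and 0.0192 in complex V, and the cause was not tested. The same covariate turned the sign of Atp5b (−0.062), Atp5g1 (−0.16), Cox6a1 (−0.051), Cox7a2l (−0.19), Cox8a (−0.021), Uqcrfs1 (−0.026), Nrf1 (0.063), Ppargc1a (0.12) and Tfam (−0.050). Log2 library size turned that of Sdhd (−0.0051), Esrra (−0.020), Nrf1 (0.18) and Tfam (−0.038), and the libraries with at least 10 CPM on receptor genes that of Cox7a1 (0.56). Leaving out 1 kidney turned Atp5g1 (−0.23 to 0.20), Atp5l (−0.43 to 0.055), Cox7a1 (−0.68 to 0.054) and Uqcrb (−0.11 to 0.093). The median over all genes lay between 0.185 and 0.291 in these fits.

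Same-numbered control and rilmenidine kidneys did not deviate together (correlations 0.076, 0.077, −0.077 and −0.0070 over all genes tested). These values gave no sign of a pairing by number. They cannot exclude one, since each compares a single kidney of each group. With the replicate block 5 subunit genes had an unadjusted p-value under 0.05 (9.12% of all genes tested), and Atp5g1 (−0.060), Cox7a1 (0.00041) and Uqcrb (−0.032) changed sign. Controls 5 and 6 have no rilmenidine kidney of the same number, so they add nothing to the group difference in that fit.

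Over all genes tested, 0 had an adjusted p-value under 0.05 in the reported fit, 241 with every gene of at least 1 count kept, 60 with DESeq2, 44 with the likelihood ratio test, 3 with the block, 33 without control 2, 37 without control 6 and 6 without rilmenidine 1. Depth limits the genes with few counts, Cox7c, Atp5l and Cox7a1 among those tested.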

Other observations

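The nuclear subunits of complex I, the NADH dehydrogenase that feeds electrons into the same chain, were read in the same way as those of complexes II to V. Of 36 listed genes 34 were tested, 33 had a log2 fold change above 0 (50.3% of all genes tested), and the median was 0.22. By edgeR's quasi-likelihood test 10 had an unadjusted p-value under 0.05, all higher with rilmenidine (4.43% of all genes tested), and 0 an adjusted one.

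Subunits encoded in mitochondrial DNA were counted unevenly. Cytochrome b, mt-Cytb, had 18334 to 88043 counts per kidney and a log2 fold change of 0.13 (standard error 0.22), whereas mt-Co1 had 370 to 1552 counts and a log2 fold change of 0.064 (SE 0.17). The complex IV subunits mt-Co2 and mt-Co3 had 1 to 12 and 1 to 14 counts per kidney, the complex V subunit mt-Atp6 had 4 to 12, and mt-Atp8 had 0 in every kidney. Over the 8 tested of 13 mitochondrially encoded protein genes, 6 were above 0 (50.3% of all genes tested), with a median of 0.069. A difference from the nuclear subunits was not tested.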
